A study of Mus musculus with 6 samples.

Results

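The genes described here are 10 cytokines that carry, or hold back, inflammatory signals: the IL1 family members Il1a, Il1b, Il1rn and Il18, the IL6 family members Il6, Osm and Lif, the founding TNF family ligand Tnf, and the regulatory cytokines Il10 and Tgfb1. They were chosen by name, as the rows of the deposited tables that bear these symbols, with earlier results of these data known. All 10 were found among the 33639 gene symbols measured. Il10 and Tgfb1 belong to cytokine families of their own, so the set is wider than the IL1, IL6 and TNF families.

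RNA was sequenced from the liver of 1 mouse on each of 4 diets, namely high sitosterol, ergosterol, stigmasterol and low sitosterol, and from the adrenal gland of 1 high sitosterol and 1 low sitosterol mouse. Per the labels, every animal was a male with a global knockout of ABCG8, and every animal was kept until weaning on a low sterol diet with 0.005% ezetimibe, a drug that blocks sterol uptake in the gut, before 12 weeks on its own diet. No mouse with an intact Abcg8 gene was included, so the low sitosterol animals are knockouts as well. The sources used here give neither strain, age at death nor sterol doses. The question stated for the series was which genes differ in the livers of mice fed each sterol, and in the adrenals of mice fed high sitosterol, from those of low sitosterol mice. With 1 library per group there was no replicate check, and each ratio below compares 2 libraries, not 2 diets.

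ABCG8 is one part of a transporter that sends plant sterols back into bile and the gut lumen, and animals without it accumulate these sterols in tissue. IL1 alpha and IL1 beta signal through the receptor IL1R1 with its partner IL1RAP, and the IL1 receptor antagonist, encoded by Il1rn, occupies the same receptor without signalling. IL6, oncostatin M (Osm) and leukemia inhibitory factor (Lif) signal through receptors that contain gp130, encoded by Il6st, and in hepatocytes this pathway switches on acute phase proteins through STAT3. In liver, Kupffer cells, the resident macrophages, are a main source of TNF, IL1 and IL10, and TGF beta is the best known inducer of collagen in stellate cells.

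Start regions of Il1rn, Il6, Lif and Il1b, chosen by name, are shown so that their regulatory letters can be compared. Each is the 250 bases before a RefSeq transcript start on GRCm38.p6, read 5′ to 3′ on the strand of the gene, and capitals mark matches to GGNNTTTCC (a core of the NF-kB motif), TGANTCA (the AP-1 motif), TTCNNNGAA (a STAT motif) or TATAAA (the TATA box), searched on both strands. The Il1rn gene has starts far apart, of which 2 are given. A further Il1rn window, chr2:24345041-24345290, overlaps the downstream one and held 0 matches.
Il1rn, upstream start, chr2:24336610-24336859, plus strand: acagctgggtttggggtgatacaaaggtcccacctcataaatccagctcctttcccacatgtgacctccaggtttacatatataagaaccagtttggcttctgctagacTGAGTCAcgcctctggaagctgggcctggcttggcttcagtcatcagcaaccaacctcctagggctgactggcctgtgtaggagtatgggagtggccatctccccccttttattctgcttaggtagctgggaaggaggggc
Il1rn, downstream start, chr2:24345121-24345370, plus strand: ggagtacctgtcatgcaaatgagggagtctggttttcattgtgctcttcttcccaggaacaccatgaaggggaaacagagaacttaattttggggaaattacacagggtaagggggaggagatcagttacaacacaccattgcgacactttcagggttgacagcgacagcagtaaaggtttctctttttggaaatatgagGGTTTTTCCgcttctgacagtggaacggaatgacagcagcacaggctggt
Il6, chr5:30012864-30013113, plus strand: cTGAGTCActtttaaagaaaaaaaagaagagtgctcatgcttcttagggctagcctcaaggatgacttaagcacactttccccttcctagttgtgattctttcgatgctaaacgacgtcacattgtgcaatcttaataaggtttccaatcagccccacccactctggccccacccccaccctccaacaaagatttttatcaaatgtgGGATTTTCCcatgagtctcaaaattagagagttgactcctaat
Lif, chr11:4257318-4257567, plus strand: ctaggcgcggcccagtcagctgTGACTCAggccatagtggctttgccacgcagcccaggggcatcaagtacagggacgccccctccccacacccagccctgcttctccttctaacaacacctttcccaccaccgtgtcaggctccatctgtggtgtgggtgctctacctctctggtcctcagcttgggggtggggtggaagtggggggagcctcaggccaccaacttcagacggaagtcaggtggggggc
Il1b, chr2:129371140-129371389, minus strand: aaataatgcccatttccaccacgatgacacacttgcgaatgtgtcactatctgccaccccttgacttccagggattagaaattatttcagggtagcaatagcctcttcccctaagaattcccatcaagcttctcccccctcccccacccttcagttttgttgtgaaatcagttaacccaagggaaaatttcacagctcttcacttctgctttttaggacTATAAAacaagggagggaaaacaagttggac

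The NF-kB core lay 50 to 42 bases before the downstream Il1rn start and 43 to 35 bases before the Il6 start. The AP-1 motif lay 141 to 135 bases before the upstream Il1rn start, 249 to 243 bases before that of Il6, 228 to 222 bases before that of Lif and 12 to 6 bases before that of Il1a. A TATA box lay 31 to 26 bases before the Il1b start, 32 to 27 before that of Il1a, 29 to 24 before that of Tnf and 175 to 170 before that of Il18. Among 32851 start regions of the same length, the NF-kB core was held by 4.93%, the AP-1 motif by 6.75%, the STAT motif by 7.02% and the TATA box by 12.4%. RefSeq windows were matched for 8 of the 10 members, all except Osm and Il10, with 10 windows in all, and no STAT motif was found in them. These matches are letters in a window and do not show that a factor binds there.

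The 6 libraries held 41546507 to 50573364 counts, so that a count of 0 allows up to 0.0593 to 0.0722 CPM, the usual depth-scaled count, when 3 counts are taken as its limit. The liver libraries bore their label, with a summed level of hepatocyte markers of 59009 to 142888 scaled CPM, against 25.8 and 21.5 in the adrenals. Abcg8 itself had 490, 394, 788 and 51 counts in the high sitosterol, ergosterol, stigmasterol and low sitosterol livers and 3 and 2 in the adrenals, and since the deleted part of the gene is not given, these do not check the knockout. The adrenals went against their label of male, so for them male is given as the label only. In them the Y-linked genes Eif2s3y and Ddx3y together stood at 0.0106% and 0.00811% of their X-linked partners, against 34.7% to 49.6% in the livers. The low sitosterol liver held adrenal transcripts, at a median of 0.135% of the adrenal level over 13 markers, against 0.00613% in the high sitosterol, 0.00441% in the ergosterol and 0.0156% in the stigmasterol liver. At that share the adrenal would account for at most 3.90 of its 187 Tgfb1 counts and for less than 1 count of any other member.

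Levels between libraries are given as scaled CPM, which is the CPM after TMM scaling within a tissue. The TMM factors were 0.95, 0.93, 1.35 and 0.83 for the high sitosterol, ergosterol, stigmasterol and low sitosterol livers, so the stigmasterol liver was scaled down the most. Ratios are log2, with a 95% interval that covers counting error only. Genes that differed at least 2-fold with an interval excluding equality were called higher or lower, and counted so, among those that reached 1 CPM in at least 1 library of the tissue. In liver 6 members passed that minimum, namely Il1a, Il1b, Il1rn, Il18, Lif and Tgfb1, and Lif passed it through the stigmasterol liver alone. Il6, Osm, Tnf and Il10 stayed below it in every liver, so their values are given but not counted.

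Of the IL1 family in liver, the antagonist gene Il1rn was higher with high sitosterol and with stigmasterol, while the agonist genes Il1a and Il1b were not called higher in any sterol-fed liver. Il1rn (chromosome 2, 24336853 to 24351494, plus strand) stood at 12.3 scaled CPM with high sitosterol, 2.90 with ergosterol and 21.4 with stigmasterol, against 2.27 in the low sitosterol liver. The high sitosterol and stigmasterol livers were high, and the ergosterol and low sitosterol livers did not differ beyond counting error. Relative to the low sitosterol liver Il1rn was higher by 2.44 (2.12 to 2.77) with high sitosterol and by 3.23 (2.93 to 3.55) with stigmasterol, and its ratio with ergosterol was 0.35 (-0.05 to 0.75). Under log2(TPM + 0.1) the ergosterol ratio of Il1rn was 1.04, just past 2-fold. These rest on 572, 129, 1458 and 93 counts in that order, so counting error is small beside the ratios, while the spread between mice is unknown. In a bulk sample, fewer cells of a type and less RNA per cell cannot be told apart, and this holds for every ratio below.

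Il1a, the agonist that is also active inside cells and on their surface, lies on chromosome 2 (129299610 to 129309972, minus strand) 54.6 kb from Il1b. It stood at 4.90 scaled CPM with high sitosterol, 2.74 with ergosterol and 1.55 with stigmasterol, against 3.86 in the low sitosterol liver. The high sitosterol liver was the highest of the 4 and the stigmasterol liver the lowest. Its ratio to the low sitosterol liver was 0.34 (0.05 to 0.65) with high sitosterol, -0.49 (-0.85 to -0.15) with ergosterol and -1.31 (-1.68 to -0.95) with stigmasterol, and only the last was counted, as lower.

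Il1b (chromosome 2, 129364570 to 129371139, minus strand) encodes the agonist that caspase-1 cuts into its active form. It stood at 1.55 scaled CPM with high sitosterol, 1.80 with ergosterol and 1.16 with stigmasterol, against 2.93 in the low sitosterol liver. The low sitosterol liver was the highest of the 4, and the stigmasterol liver was the lowest. The ratios were -0.91 (-1.36 to -0.48) with high sitosterol, -0.70 (-1.13 to -0.29) with ergosterol and -1.33 (-1.77 to -0.92) with stigmasterol, of which the last was counted as lower. Counts and TPM, the deposited share of transcripts per length, did not give the same sign for high sitosterol: Il1b had 2.20 TPM in the high sitosterol liver and 2.12 TPM in the low sitosterol liver. One CPM of Il1b was worth 1.48 TPM in the high sitosterol liver and 0.866 TPM in the low sitosterol liver. The annotation holds 3 transcripts of Il1b and the antisense gene Il1bos across it. The kit leaves strand unmarked, so reads from any sequence that the pair shares cannot be told apart by strand. Whether their exons overlap was not checked. Il1a likewise overlaps Gm14023 and Il18 overlaps Bco2 and Tex12, on the opposite strand.

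Il18 (chromosome 9, 50554827 to 50581840, plus strand), a cytokine stored as an inactive precursor in many epithelial cells and macrophages, stood at 10.3 scaled CPM with high sitosterol, 9.79 with ergosterol and 4.21 with stigmasterol, against 10.4 in the low sitosterol liver. The first 2 did not differ from the low sitosterol liver beyond counting error, with ratios of -0.01 (-0.20 to 0.19) and -0.09 (-0.28 to 0.11), and under total counts both turn to above 0, at 0.19 and 0.08. With stigmasterol the ratio was -1.30 (-1.52 to -1.08) and Il18 was counted as lower.

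**Figure D1:**
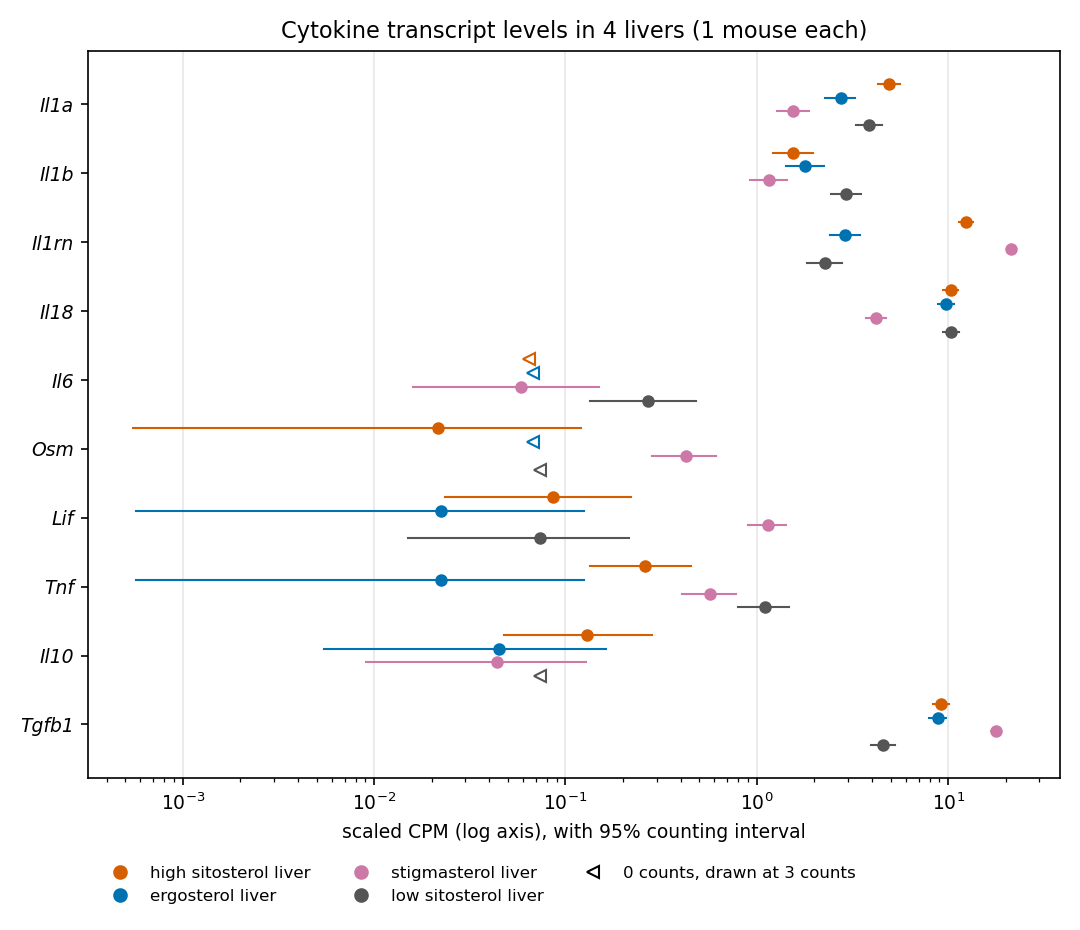
Scaled CPM (log axis) of the 10 cytokines in the 4 livers, 1 point per library with its 95% counting interval, and an open arrowhead at the level of 3 counts where a library had 0. Il1rn and Tgfb1 are highest in the stigmasterol liver (21.4 and 17.7), Il18 is lowest there (4.21), and Il6, Osm, Tnf and Il10 stay near or below 1.

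The balance of the antagonist to its agonists was taken per length, as Il1rn over the sum of Il1a and Il1b in TPM, a ratio chosen after its parts had been seen. It was 1.39 with high sitosterol, 0.591 with ergosterol and 6.31 with stigmasterol, against 0.235 in the low sitosterol liver. It was 0.211 in the high sitosterol adrenal and 0.219 in the low sitosterol adrenal. Antagonist transcripts thus outnumbered agonist transcripts in the stigmasterol and high sitosterol livers and were the minority in the other 4 libraries. Since the ratio is taken within a library, it does not depend on the scaling between libraries.

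**Figure D2:**
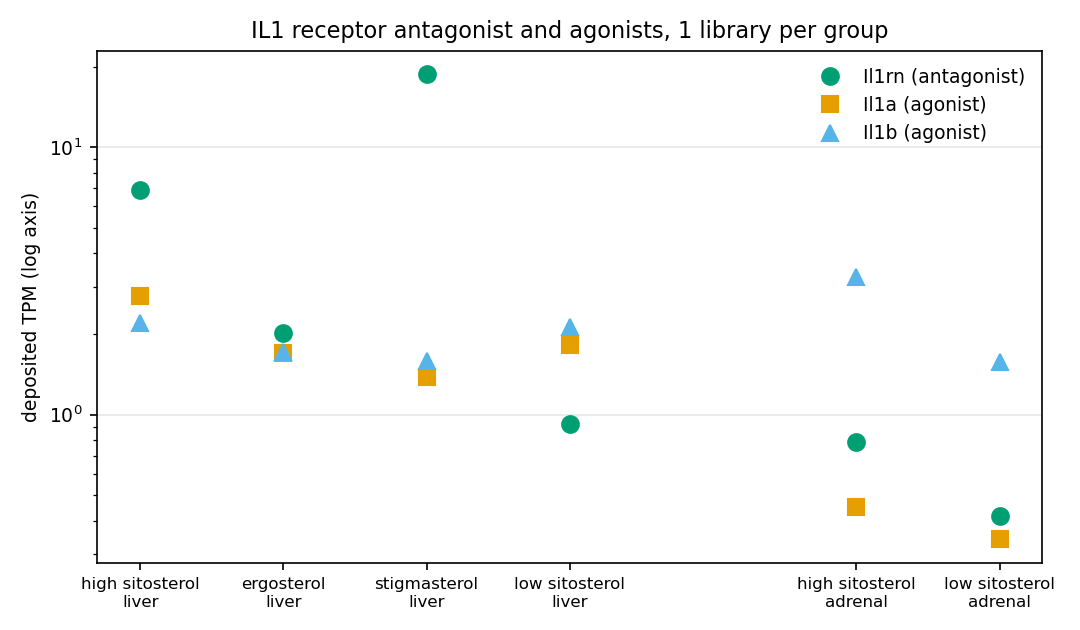
Deposited TPM (log axis) of Il1rn, Il1a and Il1b in each of the 6 libraries, 1 point per gene and library, with no interval drawn. Il1rn lies above both agonists in the high sitosterol, ergosterol and stigmasterol livers, at 6.93, 2.01 and 18.7 TPM, and below both in the low sitosterol liver, at 0.925 TPM. In the ergosterol liver its counting interval overlaps those of both agonists.

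The IL6 family ligands were near the limit of counting in liver, apart from Lif in 1 library. Il6 (chromosome 5, 30013114 to 30019981, plus strand), the main inducer of the acute phase response, had 0 counts with high sitosterol, 0 with ergosterol and 4 with stigmasterol (0.0587 scaled CPM), against 11 in the low sitosterol liver (0.269). Against the limit of 3 counts per library, and with the 11 counts taken as exact, Il6 was at least 4.15-fold lower with high sitosterol. With ergosterol it was at least 3.99-fold lower on the same terms. The 95% intervals of these 2 log2 ratios, which include the counting error of the 11, ended at -1.51 and -1.45. With stigmasterol the ratio was -2.03 (-4.30 to -0.44). These differences rest on 11 counts in 1 library, of which the adrenal share would give 0.193.

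Lif (chromosome 11, 4257557 to 4272514, plus strand), which signals through LIFR and gp130, had 4 counts with high sitosterol, 1 with ergosterol and 78 with stigmasterol, against 3 in the low sitosterol liver. The stigmasterol liver, at 1.14 scaled CPM, stood apart from the other 3, which held at most 0.0864 scaled CPM. Its ratio to the low sitosterol liver was 3.81 (2.36 to 6.27), and Lif was counted as higher. With high sitosterol the ratio was 0.21 (-2.33 to 3.01), which leaves either direction possible. Osm lies 16.5 kb from Lif (chromosome 11, 4236420 to 4241026, plus strand) and encodes a ligand released by myeloid cells. It had 29 counts in the stigmasterol liver, or 0.425 scaled CPM, against 1 in the high sitosterol, 0 in the ergosterol and 0 in the low sitosterol liver. With the 29 counts taken as exact, this is at least 5.80-fold higher in the stigmasterol than in the low sitosterol liver. The 95% interval of that log2 ratio began at 2.15, and Osm stayed below 1 CPM. The 2 neighbouring genes were thus both at their liver maximum with stigmasterol.

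Tnf (chromosome 17, 35199381 to 35202007, minus strand) encodes the cytokine that activates NF-kB through TNFR1 and TNFR2. It had 12 counts with high sitosterol (0.259 scaled CPM), 1 with ergosterol (0.0224) and 39 with stigmasterol (0.572), against 45 in the low sitosterol liver (1.10). The low sitosterol liver was the highest and the ergosterol liver the lowest. The ratios were -2.04 (-3.14 to -1.14), -5.02 (-10.95 to -3.06) and -0.93 (-1.60 to -0.29), in which the ergosterol value rests on a lone count. Tnf was below 1 CPM of the library total in all 4 livers and is not counted.

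Of the regulatory cytokines, Tgfb1 (chromosome 7, 25687002 to 25705077, plus strand), which restrains immune cells and promotes matrix deposition, stood at 9.22 scaled CPM with high sitosterol, 8.82 with ergosterol and 17.7 with stigmasterol, against 4.57 in the low sitosterol liver. All 3 sterol-fed livers were above the low sitosterol liver with intervals that excluded equality. The ratios were 1.01 (0.76 to 1.27), 0.95 (0.69 to 1.21) and 1.95 (1.73 to 2.18), so that high sitosterol fell just inside and ergosterol just outside the 2-fold limit, without a measurable difference between these 2 livers. Under total counts Tgfb1 was called higher with ergosterol as well, at 1.11. Il10 (chromosome 1, 131019845 to 131024974, plus strand), which dampens macrophage activation, had 6 counts with high sitosterol, 2 with ergosterol and 3 with stigmasterol, against 0 in the low sitosterol liver. With its 6 counts taken as exact, the first is at least 1.77-fold higher against the limit of 3 counts. The 95% interval of that log2 ratio began at 0.06, close to equality. For the other 2 no ratio can be given.

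**Figure D3:**
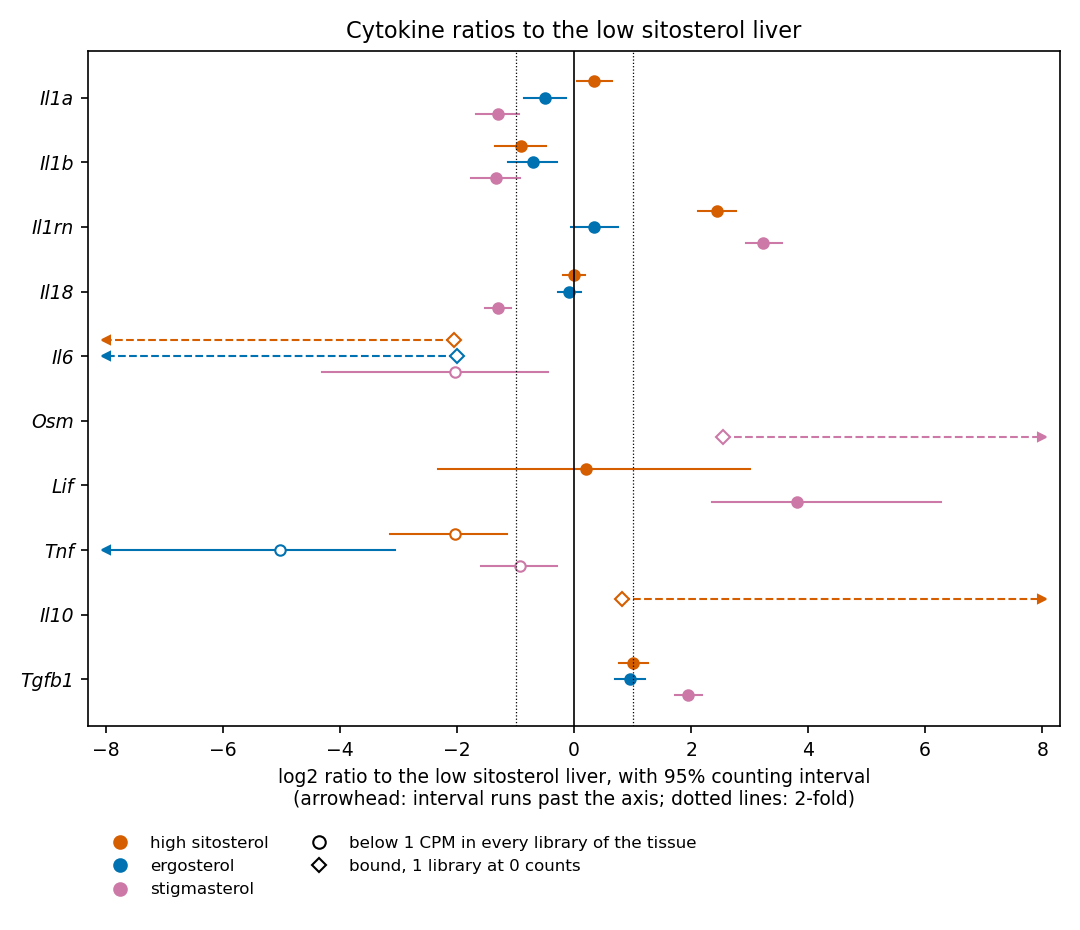
Log2 ratio of each cytokine in the high sitosterol, ergosterol and stigmasterol livers to the low sitosterol liver, 1 point per ratio with its 95% counting interval, open where the gene is below 1 CPM in every liver and a diamond where only a bound can be given. Il1rn at 2.44 and 3.23 and Tgfb1 at 1.01 and 1.95 lie to the right for high sitosterol and stigmasterol, and no ratio is drawn where both libraries hold 3 counts or fewer.

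Of the 6 members that passed the minimum, 2 were higher and 0 lower in the high sitosterol than in the low sitosterol liver (Il1rn, Tgfb1), where 8.67% of the 13378 genes that passed it were higher and 4.3% lower. In the ergosterol liver 0 were higher and 0 lower, against 6.05% and 5.81% of genes. In the stigmasterol liver 3 were higher (Il1rn, Lif, Tgfb1) and 3 lower (Il1a, Il1b, Il18), against 21.7% and 7.79% of genes. Lif passed the minimum only through the stigmasterol liver, so its call is no support. Of the 3 comparisons, this is the one where the largest share of all genes was called. The 3 comparisons share the low sitosterol liver, and any peculiarity of that mouse enters all of them.

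The scaling decides the lower calls of the stigmasterol liver. With total counts in place of TMM factors the median of all genes in that comparison moved by 0.69, and Il1a, Il1b and Il18 were at -0.62, -0.64 and -0.61, still below 0 but not counted. On the same scale the share of counted genes that were higher was 92.9% in place of 73.6% for stigmasterol, 78.4% in place of 66.9% for high sitosterol and 65.1% in place of 51% for ergosterol. Il1rn, Lif and Tgfb1 were counted as higher with stigmasterol under both scalings.

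The sterol-fed livers were also compared with each other. Stigmasterol differs from sitosterol by a double bond in the side chain. Ergosterol, the fungal sterol, has a further double bond in the rings, a double bond in the side chain and a smaller branch there. Time on diet was the same, but doses were not given, so these ratios may not be at matched doses. In the stigmasterol liver against the high sitosterol liver, Il1a (-1.65, -2.0 to -1.32) and Il18 (-1.30, -1.51 to -1.08) were lower. Lif was higher (3.60, 2.31 to 5.64). Thus 1 member was higher and 2 were lower, against 16.5% and 5.59% of genes. Lif passed the minimum only through the stigmasterol liver, so here too its call is no support. Il1rn (0.79, 0.65 to 0.93) and Tgfb1 (0.94, 0.78 to 1.10) were above equality but within 2-fold, and Il1b did not differ beyond counting error (-0.42, -0.90 to 0.06). Under total counts Il1rn (1.29) and Tgfb1 (1.44) were called higher too and Il18 (-0.80) was no longer called, and under log2(TPM + 0.1) the call of Il1a was lost as well, at -0.95.

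In the ergosterol liver against the high sitosterol liver, Il1rn was lower (-2.09, -2.38 to -1.81), and no member was higher, against 8.96% of genes lower and 6.18% higher. Il1a had a ratio of -0.84 (-1.17 to -0.52), while Il1b (0.21, -0.27 to 0.69), Il18 (-0.08, -0.27 to 0.11) and Tgfb1 (-0.06, -0.26 to 0.14) did not differ beyond counting error. In the ergosterol liver against the stigmasterol liver, Il1rn (-2.88, -3.16 to -2.62), Lif (-5.20, -10.99 to -3.15) and Tgfb1 (-1.004, -1.17 to -0.84) were lower and Il18 (1.22, 0.999 to 1.44) was higher, against 19.4% of genes lower and 7.09% higher. The call of Lif is again no support, since it passed the minimum only through the stigmasterol liver. Of the members above the minimum, Il1rn alone was called against both other sterols. The call of Il18 was lost under total counts and that of Tgfb1 under DESeq2 size factors, at -0.95. Below the minimum, Tnf had 1 count in the ergosterol liver, against 12 in the high sitosterol liver (-3.01, -8.95 to -0.77) and 39 in the stigmasterol liver (-4.21, -10.01 to -2.11). These 3 comparisons share libraries with each other and with those above.

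Receptor subunits and antagonists of the 10 cytokines were read from a list of 16 genes, of which 13 reached 1 CPM in liver. Of these, 3 were higher and 1 lower in the high sitosterol liver (median ratio 0.17, against -0.05 over all genes), 0 higher and 2 lower in the ergosterol liver (-0.15, against 0.02), and 5 higher and 3 lower in the stigmasterol liver (0.40, against 0.08). Il1r1, the signalling IL1 receptor, stood at 59.4 scaled CPM with high sitosterol, 26.8 with ergosterol and 23.7 with stigmasterol, against 100.6 in the low sitosterol liver. It was lower with ergosterol (-1.91) and stigmasterol (-2.09) and had a ratio of -0.76 with high sitosterol. Il1rap, its co-receptor, was lower with stigmasterol (-1.79), with ratios of -0.50 for high sitosterol and -0.21 for ergosterol. In TPM, Il1rap stood at 36.5 with stigmasterol, against 66.6 in the low sitosterol liver, which is under 2-fold. The counts with stigmasterol moved with the scaling, to 7 higher and 3 lower under total counts (median 1.09) and 8 higher and 2 lower under log2(TPM + 0.1) (1.37), where the median over all genes was 0.77 and 0.94.

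Il18bp, the secreted inhibitor of IL18, was higher in the high sitosterol liver (1.90), at 34.9 scaled CPM, against 9.33 in the low sitosterol liver, and had ratios of 0.41 with ergosterol and 0.62 with stigmasterol. Lifr, shared by LIF and oncostatin M, was lower with high sitosterol (-1.11) and stigmasterol (-1.96) and stood at -0.97 with ergosterol, and the first of these calls was lost under total counts. Osmr, the oncostatin M receptor, was lower with ergosterol (-1.73), higher with stigmasterol (1.34) and at 0.22 with high sitosterol. The ligand-binding IL6 receptor Il6ra and gp130 (Il6st) were within 2-fold in all 3 after TMM scaling, with Il6ra at 0.75, 0.74 and -0.48 and Il6st at -0.30, 0.37 and 0.29 for high sitosterol, ergosterol and stigmasterol. In TPM, Il6ra stood at 6.04, 7.37 and 4.07, against 2.98 in the low sitosterol liver, and Il6st at 9.83, 16.5 and 23.3, against 8.97, so that Il6ra passed 2-fold with high sitosterol and ergosterol and Il6st with stigmasterol. The TNF receptors were within 2-fold after TMM scaling, with Tnfrsf1a at 0.17, -0.15 and 0.05 and Tnfrsf1b at 0.10, 0.56 and 0.40. In TPM, Tnfrsf1b stood at 15.6 with stigmasterol, against 6.24 in the low sitosterol liver, which is past 2-fold.

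Both chains of the IL10 receptor were higher with high sitosterol and stigmasterol. Il10ra had ratios of 1.74 and 2.35 and Il10rb of 1.28 and 1.29 in these livers, against 0.63 and -0.53 in the ergosterol liver. The TGF beta receptors were higher with stigmasterol only just beyond 2-fold, with Tgfbr1 at 1.08 and Tgfbr2 at 1.03, and stood at -0.07 and 0.42 with high sitosterol and at -0.29 and 0.21 with ergosterol. Under DESeq2 size factors 4 receptor genes in place of 5 were higher with stigmasterol, and the call of Tgfbr2 was the one lost. Il1r2, the decoy receptor, Il18r1 and Il18rap were below 1 CPM in every liver.

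**Figure D4:**
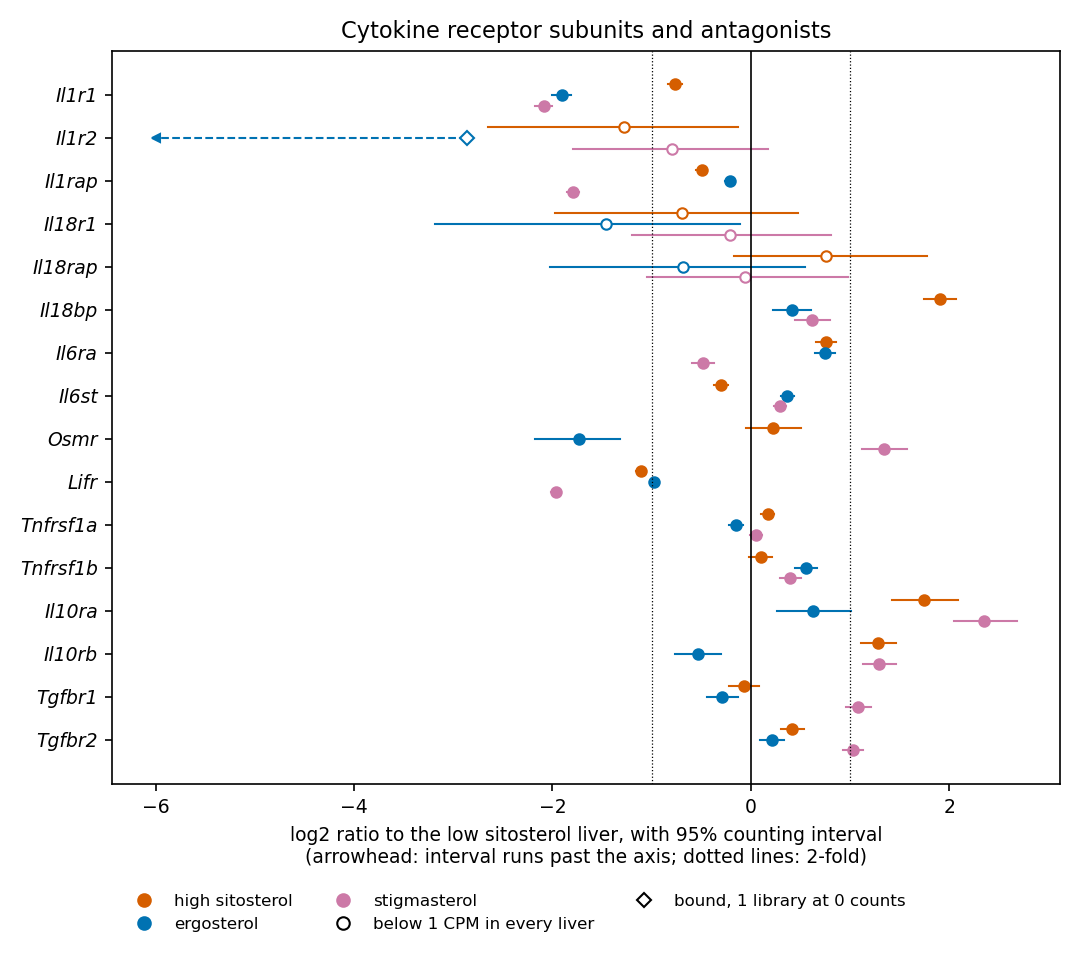
Log2 ratio to the low sitosterol liver of 16 receptor subunits and antagonists, 1 point per sterol-fed liver with its 95% counting interval, open where the gene is below 1 CPM in every liver and a diamond where a library holds 0 counts. Il1r1 lies left of equality in all 3 livers (-0.76, -1.91 and -2.09), Il10ra lies right in all 3 (1.74, 0.63 and 2.35), and Osmr lies on opposite sides for ergosterol and stigmasterol (-1.73 and 1.34).

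Genes downstream of the cytokines were read from lists of the same kind. For these lists and the receptors above, 8.67% of all genes that passed the minimum were higher and 4.3% lower with high sitosterol. With ergosterol these shares were 6.05% and 5.81%, and with stigmasterol 21.7% and 7.79%. The medians over all genes were -0.05, 0.02 and 0.08 in that order. Of 13 NF-kB feedback and target genes, which TNF and IL1 induce, 9 were higher and 0 lower in the high sitosterol liver, with a median ratio of 1.14, among them the inhibitor Tnfaip3 (2.34), the adhesion molecule Vcam1 (2.34) and Tnfaip2 (2.05). In the ergosterol liver 1 was higher (Tnfaip2, 1.66) and 0 lower, with a median of -0.21. In the stigmasterol liver 8 were higher and 0 lower, with a median of 1.81, led by Traf1 (3.05), Relb (2.87) and Tnfaip2 (2.23). Il1a and Il1b were not counted as higher in any of these livers. Tnf was below 1 CPM in every liver and so could not be counted in either direction.

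Of 16 IL6 and STAT3 target genes of hepatocytes, 6 were higher and 1 lower with high sitosterol (median 0.45), 0 higher and 3 lower with ergosterol (-0.32), and 5 higher and 5 lower with stigmasterol (0.08). The iron-binding protein Lcn2 had ratios of 3.85, -1.29 and 4.64 in that order, and with high sitosterol the acute phase genes Saa2 (2.09) and Orm2 (2.0) were higher as well. The iron regulator Hamp was the lower gene with high sitosterol (-1.28) and was lower with ergosterol (-1.25) and stigmasterol (-1.35) too. Il1rn is a member of this list too. Socs3, the feedback inhibitor of gp130 signalling, did not go with them, at -0.52 with high sitosterol, 0.84 with ergosterol and -1.10 with stigmasterol. Under total counts 7 were higher and 0 lower with stigmasterol, so the 5 lower calls depend on the scaling.

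Of 12 TGF beta target genes, 2 were higher and 1 lower with high sitosterol (median 0.51). The protease inhibitor Timp1 (1.19) was among the higher genes, and the smooth muscle actin Acta2 (-2.82) was the lower one. With ergosterol 0 were higher and 1 lower (-0.35), and with stigmasterol 9 were higher and 0 lower (2.25), led by Timp1 (4.85), the TGF beta binding protein Ltbp2 (4.74) and the collagen Col1a1 (4.15). Tgfb1 had nearly the same ratio with high sitosterol and ergosterol, while its listed targets had medians of 0.51 and -0.35, or of 0.72 and 0.15 under log2(TPM + 0.1). Of 8 genes of the inflammasome and of cytokine release, 2 were higher with high sitosterol (median 0.68), 0 with ergosterol (-0.06) and 4 with stigmasterol (1.04), with 0, 1 and 0 lower. Aim2 (1.44) and Casp4 (1.31) were the 2 with high sitosterol, and Casp4 (2.17) and Pycard (1.73) led with stigmasterol. Under total counts 4 were higher with high sitosterol and 7 with stigmasterol, where 1518 and 5285 of all 13378 genes were higher, in place of 1160 and 2903. The sensor Nlrp3 had ratios of 0.44, 0.49 and 0.80 and was not counted.

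Of 11 further ligands of these families, 3 were higher with high sitosterol (median 0.04), 2 higher and 2 lower with ergosterol (-0.12), and 7 higher and 1 lower with stigmasterol (1.46). The lymphotoxin gene Ltb was higher in all 3, at 2.84, 1.73 and 5.10. Clcf1, a gp130 ligand, was higher with high sitosterol (2.38) and stigmasterol (4.52), as Il1f9, of the IL36 branch of the IL1 family, was with high sitosterol (1.89). The ligand Tgfb2 was lower with ergosterol (-1.39) and higher with stigmasterol (3.14), although its level in the low sitosterol liver was only 0.489 scaled CPM. Of the genes named from these lists, Ltb, Clcf1, Il1f9, Tgfb2, Traf1, Aim2, Casp4, Ltbp2 and Timp1 were below 1 CPM in the low sitosterol liver and passed the minimum only through sterol-fed livers. All 6 list medians of the ergosterol liver, which were below 0, turned to between 0.06 and 0.60 under log2(TPM + 0.1), where the median of all genes moved by 0.34, and the 3 lower calls among IL6 and STAT3 targets were lost.

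Levels of cell type markers differed between the same libraries. The summed level of 14 Kupffer cell and macrophage markers was 1259 scaled CPM with high sitosterol, 648 with ergosterol and 937 with stigmasterol, against 411 in the low sitosterol liver, with 13, 3 and 8 markers higher and 1, 0 and 3 lower. Of all genes that passed the minimum, 8.67%, 6.05% and 21.7% were higher and 4.3%, 5.81% and 7.79% lower, in that order. The 8 monocyte and dendritic cell markers summed to 20.5, 10.2 and 58.0 in the sterol-fed livers, against 13.1 in the low sitosterol liver. The 10 neutrophil markers summed to 13.1, 3.34 and 13.9, against 10.6, with 1, 3 and 0 of them at 0 counts in the sterol-fed livers and 1 in the low sitosterol liver. Cholangiocyte markers summed to 70.2, 39.3 and 908, against 64.8, and stellate cell markers to 204, 170 and 558, against 171. Markers of T and NK cells summed to 6.82, 5.59 and 10.6, against 4.96, and those of B and plasma cells to 4.38, 4.87 and 22.2, against 2.22. Hepatocyte markers summed to 142888, 109265 and 59009, against 110269, so the high sitosterol liver was the highest and the stigmasterol liver the lowest. The part of these cell types in the cytokine ratios was not tested.

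Per length, the order of the cytokines within a library was led by Il18 in 3 of the livers, with 17.9 TPM in the high sitosterol, 16.4 TPM in the ergosterol and 14.5 TPM in the low sitosterol liver. In the stigmasterol liver Il1rn led with 18.7 TPM, ahead of Tgfb1 (15.1) and Il18 (10.98), and the counting intervals of these 3 did not overlap. In the low sitosterol liver Il1b (2.12 TPM), Tgfb1 (2.03) and Il1a (1.82) could not be ordered beyond counting error, nor could Il1rn (2.01), Il1b (1.71) and Il1a (1.70) in the ergosterol liver. In the high sitosterol liver Il1rn (6.93 TPM) and Tgfb1 (5.505) followed Il18 with separate intervals. Il6, Osm, Lif, Tnf and Il10 were each below 1 TPM in every liver.

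The liver genes with the pattern most like that of a member were found by the distance between log2 scaled CPM values centred over the 4 livers, among 12639 genes (12640 for Tnf). For Il1rn these were Uap1l1, Arhgef2 and Ankrd6, at distances of 0.19, 0.20 and 0.26, and 26 genes lay within 0.5. For Tgfb1 they were Lyl1 (0.07), Tbc1d1 (0.12) and Casp2 (0.13), and for Il18 Sult1b1 (0.07), Gckr (0.09) and Tlcd1 (0.09). Within 0.5 lay 183 and 332 genes for these 2 members, more than the 26 of Il1rn. For Tnf the nearest were Ptgfr (0.71), Ighg1 (0.81) and Gfpt2 (1.47), and 0 genes lay within 0.5, though Tnf has few counts. Likeness over 4 libraries is a description only.

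In the adrenal gland, Il6 and Lif were higher in the high sitosterol library. Il6 had 139 counts in the high sitosterol adrenal (2.88 scaled CPM), against 1 in the low sitosterol adrenal (0.0242), a ratio of 6.35 (4.39 to 12.21) that rests on that lone count. Lif had 254 counts (5.25 scaled CPM) in the high sitosterol adrenal, against 18 (0.436) in the low sitosterol adrenal, a ratio of 3.56 (2.90 to 4.37). Both were counted as higher, and both passed the 1 CPM minimum through the high sitosterol library alone. They are 2 of the 5 members that passed it, with 0 lower. Of the 14224 genes that passed it, 3.83% were higher and 2.31% lower. Passing through the high sitosterol library alone favours a call of higher there, so these 2 calls are no support. Osm had 44 counts in the high sitosterol adrenal, against 12 in the low sitosterol adrenal, with a ratio of 1.61 (0.70 to 2.70) but under 1 CPM in each.

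The other adrenal cytokines had ratios above 0 without being counted. Tgfb1 stood at 58.3 scaled CPM in the high sitosterol adrenal, against 33.0 in the low sitosterol adrenal (0.82, 0.73 to 0.91), Il18 at 2.32 against 1.28 (0.85, 0.37 to 1.35) and Il1b at 2.13 against 1.23 (0.78, 0.29 to 1.30). The intervals of these 3 excluded equality, but the ratios were under 2-fold. Il1rn had 40 counts in the high sitosterol adrenal, against 14 in the low sitosterol adrenal (1.26, 0.38 to 2.28), under 1 CPM in each. For Il1a (27 against 17 counts), Tnf (11 against 4) and Il10 (10 against 4), the interval of the ratio included equality. Per length, Tgfb1 led both adrenals, with 50.7 TPM in the high sitosterol and 29.0 TPM in the low sitosterol adrenal, and Il6 (5.15 TPM) and Il18 (5.13) followed in the high sitosterol adrenal with overlapping intervals.

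**Figure D5:**
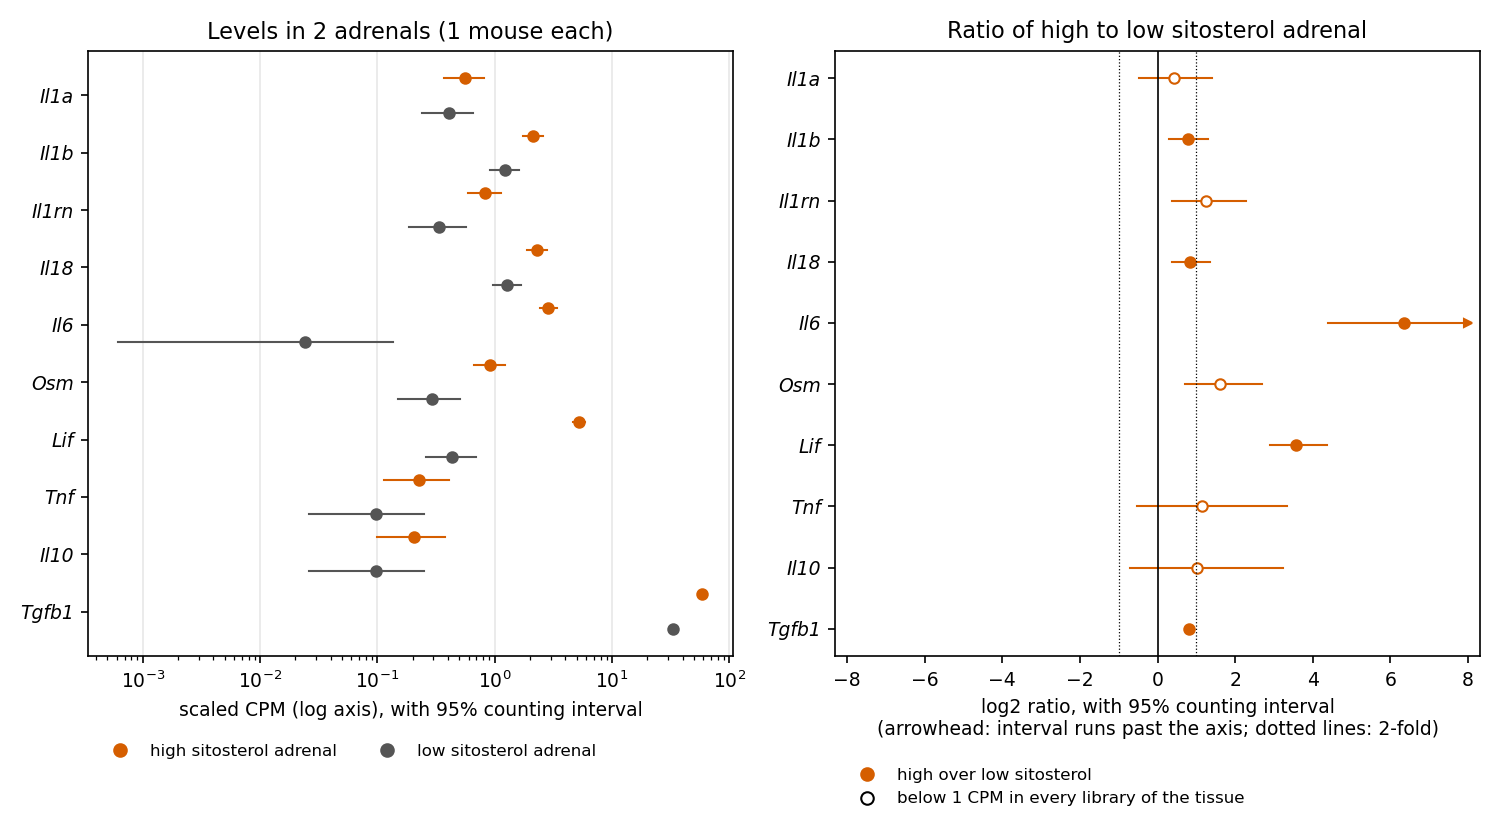
Left, scaled CPM (log axis) of the 10 cytokines in the high and low sitosterol adrenals with 95% counting intervals, and right, the log2 ratio of high to low sitosterol, open where the gene is below 1 CPM in both. Every ratio is above 0, and Il6 (6.35) and Lif (3.56) lie beyond the others.

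Of 10 further ligands, 3 were higher in the high sitosterol adrenal and 0 lower (median 0.19), and of these Il11 (4.77) and Clcf1 (2.21) are gp130 ligands like Il6 and Lif, and Tgfb2 (1.47) is a TGF beta. The gp130 ligands Ctf1 (-0.94, -1.45 to -0.46) and Cntf (0.57, -0.18 to 1.37, below 1 CPM) did not go with them. Of 15 receptor genes 1 was higher, the decoy receptor Il1r2 (3.12), and 0 were lower, with a median of 0.11. Of 12 genes from the list of IL6 and STAT3 targets, 4 were higher, namely Saa3 (2.76), Lcn2 (1.89), Stat3 (1.59) and Socs3 (1.34). Another 2 were lower, namely Orm1 (-1.84) and Hamp (-1.53), and the median of the list was 0.32. That list was drawn up for hepatocytes, whose markers summed to only 25.8 and 21.5 scaled CPM in the high and low sitosterol adrenals. Il11, Il1r2, Saa3 and Lcn2 passed the minimum only through the high sitosterol adrenal, and with 5 CPM as the minimum 0 receptors and 2 IL6 and STAT3 targets were higher. Of 14 NF-kB genes 4 were higher and 0 lower (0.57), led by the prostaglandin synthase Ptgs2 (1.70), Vcam1 (1.60) and Icam1 (1.27), of 12 TGF beta targets 3 were higher and 1 lower (0.02), and of 10 inflammasome genes 1 was higher and 0 lower (0.45). The median over all adrenal genes was 0.00, with 3.83% of them higher and 2.31% lower.

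Neutrophil markers summed to 27.4 scaled CPM in the high sitosterol adrenal, against 8.55 in the low sitosterol adrenal, with 6 of 7 analysed markers higher, and macrophage markers to 1106 against 663, with 6 of 13 higher. Over all adrenal genes that passed the minimum, 3.83% were higher. The part of these cell types in the adrenal cytokine ratios was not tested. Markers of the adrenal cortex summed to 58460 in the high sitosterol and 57399 in the low sitosterol adrenal.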

How the data were processed

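RNA was measured by sequencing in 4 livers and 2 adrenals. The authors deposited 2 tables for the same libraries, estimated counts per gene symbol and TPM. The estimated counts were not whole for 39.1% to 49.3% of genes, from the values. Per the submitters' processing notes, Trimmomatic 0.33, HISAT2 2.0.5, kallisto 0.43.1 and mm10 were used, with no role or order given. Per the labels' protocols, total RNA came from Qiagen RNeasy columns, and the TruSeq RNA kit used leaves strand unmarked. The sources used here do not name the annotation.

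Counts were rounded. TMM factors (edgeR 4.0.16, R 4.3.3) were computed within each tissue. Ratios used a prior count of 0.5, with exact Clopper-Pearson 95% intervals for counting error only, as PCR copies of a molecule are counted separately. The rule for a counted gene and the 1 CPM minimum (13378 liver and 14224 adrenal genes) are given with the results. 1 row that names no gene, with 0% of counts, was left out. Positions come from GENCODE M21 (GRCm38), where 32158 symbols matched. Alternatives were total counts, DESeq2 1.42.0 size factors, log2(TPM + 0.1), log2(TPM + 1), no minimum, 5 CPM, and a prior count of 2, with 1 more added after seeing the data. The procedure was tested on simulated counts that held counting error only, so that test does not cover the spread between mice. The text names every member, the fixed receptor genes with Socs3 and Nlrp3, up to 3 further called genes of each list with the largest ratios, and the 3 nearest patterns of 4 members. Members, lists and rules were chosen with earlier results of these data known. No p-value was computed, because there is 1 library per group. Some genes that the naming rule would list are not reported here.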

Additional observations from a re-analysis of the deposited data

Results flagged for a closer look

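Il1b and Il6 stood on opposite sides of equality in the 2 tissues under high sitosterol against low sitosterol. Il1b had a log2 ratio of -0.91 in liver and 0.78 in adrenal. Il6 had 0 counts in the high sitosterol liver, against 11 counts in the low sitosterol liver. With the 11 taken as exact it was at least 4.15-fold lower in liver, while its log2 ratio in adrenal was 6.35. The difference between the tissues was not tested, since each ratio compares 1 library with 1 library. The adrenals also nearly lacked the Y-linked transcripts that the livers held. Tissue therefore cannot be told apart from the animals used or from their apparent sex. In TPM the liver difference of Il1b does not hold, with 2.20 TPM in the high sitosterol and 2.12 TPM in the low sitosterol liver, and the part of Il1bos reads in it was not tested.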

How the results depend on the processing

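Counts of members called changed with the scaling and with the minimum. Under total counts 1 member was higher with ergosterol against low sitosterol (Tgfb1, in place of 0), 0 were lower with stigmasterol against low sitosterol (in place of 3), 3 were higher and 1 lower with stigmasterol against high sitosterol (in place of 1 and 2), and 0 were higher with ergosterol against stigmasterol (in place of 1). Under log2(TPM + 0.1) these counts were 2, 0, 3, 0 and 0, and under log2(TPM + 1) they were 1, 0, 2, 0 and 0. With no minimum, 2 were lower with high sitosterol and 2 with ergosterol against low sitosterol (Il6 and Tnf each time, in place of 0), 3 were higher with stigmasterol against high sitosterol, 2 lower with ergosterol against high sitosterol (in place of 1), 5 lower with ergosterol against stigmasterol (in place of 3) and 4 higher in adrenal (in place of 2). With 5 CPM, 1 was lower with stigmasterol against low sitosterol (Il18), 0 were higher and 1 lower with stigmasterol against high sitosterol, and 1 was higher in adrenal (Lif). DESeq2 size factors and a prior count of 2 left every count of members within 1.5 times, though under DESeq2 size factors Tgfb1 with ergosterol against stigmasterol was at -0.95 and no longer counted. Scaling the 3 sterol-fed livers alone, a choice made after seeing the data, left their ratios as they were and is no separate check. No counted member changed sign. Members that were not counted did so in these cases, leaving out Il10, which has too few counts for a ratio: Il18 with high sitosterol (0.19) and ergosterol (0.08) against low sitosterol under total counts, Il1b with high sitosterol against low sitosterol (0.05 under log2(TPM + 0.1)) and with stigmasterol against high sitosterol (0.07 under total counts), and Il1b (-0.35) and Tgfb1 (0.10) with ergosterol against high sitosterol under log2(TPM + 0.1).

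No paired analysis was possible because each group has 1 library, which also leaves no fit without a library. Depth limits Il6, Osm, Lif, Tnf and Il10, whose liver ratios rest on 0 to 78 counts a library.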
